A study of Mus musculus with 24 samples.

Results

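Neural progenitor cells of the mouse cortex were followed as they differentiated between 12 and 24 h in the presence of (−)-JQ1, the inactive control compound of the study, in 12 of the 24 libraries of the series. The libraries were chosen by their titles alone, 6 taken at 24 h and 6 taken at 12 h, with 3 libraries at 0.2 µM and 3 at 0.5 µM at each time. The cells came from cortices of C57BL/6 embryos at embryonic day 12, were expanded with B27 supplement and basic fibroblast growth factor, and were moved at passage 3 into differentiation medium, whose composition is not given in the sources used here. (−)-JQ1 is the mirror image of (+)-JQ1, an inhibitor that keeps BET bromodomain proteins off acetylated histones, and the other 12 libraries received (+)-JQ1 at the same doses and times. The 3 libraries of a group came from 3 separate preparations of progenitors. Libraries with the same number at both doses may come from the same preparation, so the 6 libraries of a time may stand for as few as 3 preparations and p-values that treat them as 6 may be too small. No vehicle-treated or undifferentiated library entered the comparison, and all 12 libraries carried (−)-JQ1, so an effect of this compound on the course itself cannot be told apart from differentiation.

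Progenitors grown with basic fibroblast growth factor keep dividing under FGF receptor, ERK and Notch signalling, and in differentiation medium they can form neurons, astrocytes and oligodendrocytes. Oligodendrocyte precursors, which carry the receptor Pdgfra, pass through a premyelinating stage marked by Enpp6 and Bcas1 and then make the myelin proteins Mbp and Mag. In dividing cells, E2F factors switch on the genes of DNA replication as cells enter S phase, and the genes of mitosis follow through a promoter element called CHR.

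The promoters of both sets of cell cycle genes are shown first because some of their genes differed in course between (−)-JQ1 and (+)-JQ1. Tested over all 24 libraries, these were 12 of 44 replication genes and 16 of 66 G2 and mitosis genes. Of the 6 genes printed below, Mcm5, Top2a and Ncapg differed by limma's test of the difference. Mcm6 (adjusted p = 0.252), Pola1 (0.726) and Cdca5 (0.0505) did not pass that test and are printed for their change in (−)-JQ1. Of the 26 replication genes that rose in (−)-JQ1, 22 had a promoter in the RefSeq table (build GRCm38.p6, 250 bases before to 50 after the first listed start of each gene). An E2F motif (TTTCCCGC, TTTGGCGC or TTTCGCGC on either strand) stood in 6 of the 22 (27.3%) and in 1.84% of all 32851 promoters of the table. Among the 44 replication genes tested, called or not, it stood in 11 of the 35 promoters found (31.4%). A CHR motif (TTTGAA or TTCGAA on either strand) stood in 35 of the 49 promoters found for the 61 G2 and mitosis genes tested (71.4%) and in 19.2% of all promoters. The shares over all promoters take in every listed start, whereas the shares of the gene sets take only the first listed start of each gene. These shares are thus not like for like. Of the 13525 genes tested in these libraries, 9856 (72.9%) had a promoter in the table, so a comparison with them is void for want of coverage, and in these the shares were 3.74% for E2F and 13.3% for CHR. The 150 bases before the start are printed 5′ to 3′ for 6 called members, with the motif in capitals, which in Mcm6 joins overlapping matches. Mcm6 and Mcm5 are subunits of the helicase that unwinds DNA at the fork, Pola1 is the catalytic subunit of the polymerase that starts each strand, Top2a untangles DNA, Ncapg is a condensin subunit and Cdca5 protects cohesion of sister chromatids. The windows lie at chr1:128359706-128359855 (minus strand) for Mcm6, chr8:75109359-75109508 (plus strand) for Mcm5, chrX:93632156-93632305 (minus strand) for Pola1, chr11:99024190-99024339 (minus strand) for Top2a, chr5:45669775-45669924 (plus strand) for Ncapg and chr19:6084947-6085096 (plus strand) for Cdca5. A match is a description of the letters and not a measured site.
Mcm6: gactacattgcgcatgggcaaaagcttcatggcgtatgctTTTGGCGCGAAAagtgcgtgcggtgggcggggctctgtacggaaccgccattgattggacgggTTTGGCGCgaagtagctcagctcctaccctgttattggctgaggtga
Mcm5: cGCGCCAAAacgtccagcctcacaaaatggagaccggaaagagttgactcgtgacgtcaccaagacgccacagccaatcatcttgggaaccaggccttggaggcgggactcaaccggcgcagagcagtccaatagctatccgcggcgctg
Pola1: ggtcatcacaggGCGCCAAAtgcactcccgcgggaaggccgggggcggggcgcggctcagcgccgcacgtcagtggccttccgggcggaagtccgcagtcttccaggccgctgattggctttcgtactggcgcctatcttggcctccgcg
Top2a: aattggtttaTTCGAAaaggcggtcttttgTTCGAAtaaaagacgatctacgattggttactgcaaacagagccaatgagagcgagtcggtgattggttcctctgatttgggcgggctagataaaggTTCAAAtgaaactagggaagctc
Ncapg: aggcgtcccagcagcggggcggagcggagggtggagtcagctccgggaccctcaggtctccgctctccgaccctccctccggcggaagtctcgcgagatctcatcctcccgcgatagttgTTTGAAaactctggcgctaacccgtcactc
Cdca5: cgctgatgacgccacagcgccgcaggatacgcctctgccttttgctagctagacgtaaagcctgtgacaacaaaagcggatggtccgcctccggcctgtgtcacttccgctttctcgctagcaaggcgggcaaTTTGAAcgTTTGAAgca

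Values were FPKM per gene symbol, fragments scaled by transcript length and by mapped reads, which do not give the number of reads. Steps between low values put the depth of the 12 libraries, relative to the mean of all 24, between 0.938 and 1.05, and the absolute depth is unknown. Hexim1, a gene known to rise when BET proteins are blocked, was at 16.8 to 21.8 FPKM in the 12 (−)-JQ1 libraries and at 51.1 to 72.1 FPKM in the 12 (+)-JQ1 libraries, as the labels have it. On the first principal component, which held 33.7% of the variance, the 12 h libraries lay between -19.3 and -11.4 and the 24 h libraries between 1.06 and 27.1. The 24 h libraries were themselves spread out: the 0.5 µM replicates 1 and 2 and the 0.2 µM replicate 2 lay between 24.4 and 27.1, and the other 3 between 1.06 and 10.4. The 0.2 µM replicates 1 and 3 at 24 h stood apart, with a root mean square distance of 0.438 and 0.345 on the log2 scale from the mean of the other 5 libraries of their time, against 0.254 to 0.269 for the other 24 h libraries and 0.164 to 0.216 for the 12 h libraries. In replicate 1 the short RNA Mir5105 held 42.7% of all FPKM. The labelled cell type was checked against its markers: Sox2 was at 192 to 326 FPKM, Nes at 58 to 82.4 FPKM and Fabp7 at 1318 to 3245 FPKM over the 12 libraries, and the same libraries held Olig2 at 277 to 375 FPKM and Gfap at 259 to 583 FPKM. Of the markers of other cell types, 15 of 17 for microglia, 12 of 14 for endothelium, 11 of 11 for erythroid cells, 7 of 18 for pericytes, smooth muscle and fibroblasts, 6 of 10 for neural crest and Schwann cells and 8 of 10 for choroid plexus stayed under 1 FPKM in all 12 libraries.

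**Figure D1:**
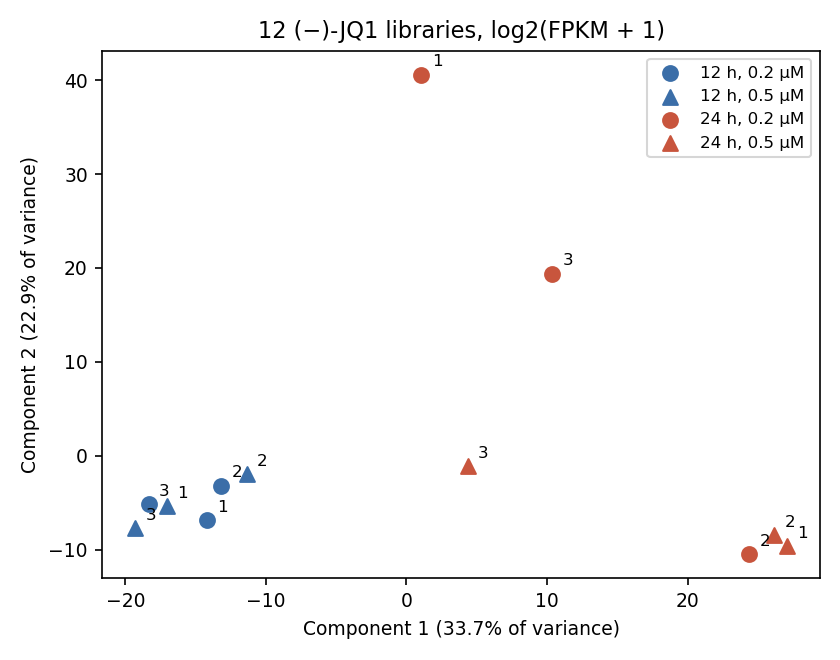
Principal components of log2(FPKM + 1) over the genes tested, short RNAs left out, in the 12 (−)-JQ1 libraries; colour is time, shape is dose and the number is the replicate. The 12 h libraries lie together at the left, and the 0.2 µM replicates 1 and 3 at 24 h lie above the rest on component 2 (22.9% of variance).

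Between 12 and 24 h in (−)-JQ1, Eln, Tagln and Ogn were among the largest rises, and Actc1, Pde2a and Gas7 were among the largest falls. Of 13525 genes tested with limma on log2(FPKM + 1), 1588 (11.7%) passed an adjusted p under 0.05, of which 1165 (8.61% of those tested) were higher and 423 (3.13%) were lower at 24 h. Of these, 73 rose and 23 fell at least 2-fold on that scale. The median log2 change over all genes was 0.03. List counts given below are to be read beside the shares of 8.61% higher and 3.13% lower, and some lie near them. With libraries rescaled by their median ratio to the geometric mean, 973 were higher and 704 lower, so the balance of rises and falls depends on the scale. Without the 2 libraries that stood apart, 3705 genes passed, 1956 higher and 1749 lower, and 1442 of the 1588 kept their call and direction. List counts given below for that setting stand against these larger totals. Leaving out 24 h 0.2 µM replicate 1 alone gave 2703 genes. With the same-numbered libraries of a time averaged over both doses, so that each number counts once at a time, 763 genes passed, 594 higher and 169 lower, and 737 of the 1588 kept their call and direction. In that setting, 15 of 26 genes of premyelinating and myelinating oligodendrocytes and 17 of 44 replication genes were higher, and 9 of 28 FGF-ERK genes were lower. Because these are bulk samples, fewer cells of a type and less RNA per cell cannot be told apart.

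Eln, the elastic fibre protein elastin, was at 3.29 to 5.3 FPKM at 12 h (median 3.86) and 17 to 44.8 FPKM at 24 h (median 21.3). Its log2 change was 2.27 ± 0.19 (SE), with an adjusted p of 1.63e-05. Tagln, an actin-binding protein of contractile cells, was at 10.4 to 19.1 FPKM at 12 h (median 16.4) and 45.1 to 112 FPKM at 24 h (median 77.3). Tagln changed by 2.27 ± 0.19 (adjusted p = 2.03e-05). In both genes the 6 libraries of one time did not overlap the 6 of the other, which held for 5.35% of all genes tested in this direction and for 7.19% in either direction. Further large rises without overlap were seen in Ogn, a matrix proteoglycan, at 2.04 ± 0.28, in Ctgf, a matricellular growth factor, at 1.77 ± 0.33, in Thbs1, a matrix glycoprotein, at 1.75 ± 0.31, in Tspan18 at 1.49 ± 0.11 and in Glycam1 at 1.48 ± 0.22. Among the falls, Actc1, the cardiac form of actin, was at 8.4 to 14.7 FPKM at 12 h (median 11.7) and 1.46 to 3.84 FPKM at 24 h (median 2.27). Actc1 changed by -1.84 ± 0.19 (adjusted p = 6.49e-05). Pde2a, a phosphodiesterase that breaks down cyclic nucleotides, changed by -1.49 ± 0.14, Gas7 by -1.14 ± 0.10, Ripply1 by -1.05 ± 0.14, Ly6e by -1.05 ± 0.15 and 6530418L21Rik by -1.22 ± 0.20, all with no overlap, as in 1.83% of all genes in this direction. The long non-coding RNA Miat changed by -1.18 ± 0.23, and its highest 24 h library overlapped the 12 h range.

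**Figure D2:**
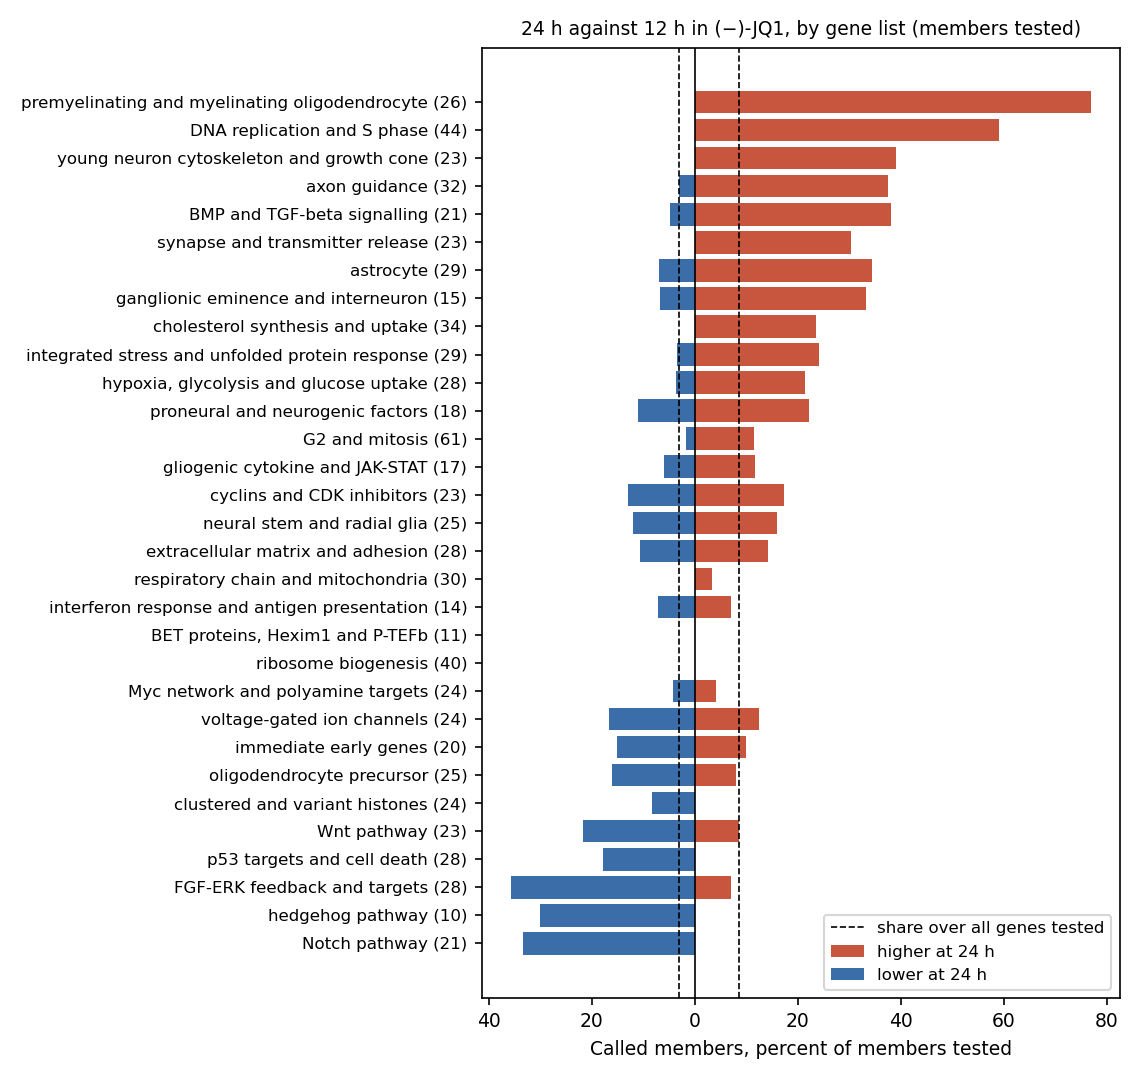
Share of the members of each gene list of a cell programme (marker lists of other cell types are not drawn) that were called higher (right) or lower (left) at 24 h in (−)-JQ1, in percent of the members tested, whose number stands in brackets; dashed lines mark the share over all genes tested (8.61% higher, 3.13% lower). The longest bar to the right is that of premyelinating and myelinating oligodendrocyte genes, and FGF-ERK, Notch and hedgehog genes reach farthest to the left.

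Genes of premyelinating and myelinating oligodendrocytes rose together, while most genes of their precursors did not pass the test. Of 26 members tested, 20 were higher and 0 were lower, with a median log2 change of 0.66, and 14 of the 26 showed no overlap between the times. Between 16 and 21 were higher when single libraries were left out, and 20 without both libraries that stood apart. Mbp, a protein that compacts the myelin sheath, was at 71.6 to 85.6 FPKM at 12 h (median 77.8) and 184 to 306 FPKM at 24 h (median 213). The highest library at 12 h was thus below the lowest at 24 h, and the log2 change was 1.55 ± 0.12 (adjusted p = 6.48e-06). Mag, an adhesion protein of the inner myelin wrap, was at 6.5 to 8.71 FPKM at 12 h (median 7.11) and 14.4 to 28.2 FPKM at 24 h (median 17.9). Mag changed by 1.31 ± 0.13 (adjusted p = 4.16e-05). Cldn11, the tight junction claudin of myelin, changed by 1.23 ± 0.08, Tmem163, a zinc transporter, by 1.30 ± 0.13, Mobp, a basic protein of myelin, by 1.03 ± 0.19 and Nfasc, which anchors axon and glial membranes at the node, by 0.99 ± 0.12.

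Enpp6, a choline phosphodiesterase of newly formed oligodendrocytes, was at 16.2 to 24.4 FPKM at 12 h (median 17.8) and 37.7 to 57 FPKM at 24 h (median 42.5), with no overlap. Its log2 change was 1.19 ± 0.11 (adjusted p = 2.86e-05). Bcas1, a marker of the same stage, was at 216 to 276 FPKM at 12 h (median 237) and 264 to 489.7 FPKM at 24 h (median 472). Bcas1 changed by 0.83 ± 0.14 (adjusted p = 0.00188). Its 24 h libraries lay at 449.7 FPKM or more except 0.2 µM replicate 1, which at 264 FPKM was inside the 12 h range. Gm98, the file's symbol for the myelin regulator Myrf, had a log2 change of 0.41 ± 0.14 (adjusted p = 0.0641). Mog, a late myelin protein, was below the filter for testing, at 0.107 to 0.347 FPKM at 12 h and 0.275 to 0.703 FPKM at 24 h, as were Ermn and Ninj2.

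Of 25 precursor genes tested, 2 were higher and 4 lower, with a median log2 change of -0.03, where 8.61% of all genes were higher and 3.13% lower. Pdgfra, the receptor that keeps precursors dividing, was at 39.5 to 48.6 FPKM at 12 h (median 41.5) and 35.6 to 43.2 FPKM at 24 h (median 39.9), and its log2 change of -0.10 ± 0.08 did not pass (adjusted p = 0.431). Neither did Sox10 at -0.03 ± 0.12, a lineage factor of all stages, nor Gpr17 at -0.04 ± 0.08, a receptor of committed precursors. The proteoglycan Cspg4 was at 2.52 to 3.19 FPKM at 12 h (median 2.9) and 1.44 to 2.53 FPKM at 24 h (median 1.57). Cspg4 changed by -0.49 ± 0.10 (adjusted p = 0.00683). Sox8, a partner of Sox10, fell by 0.39 and the chromatin remodeller Chd7 fell by 0.43 on the log2 scale, while Cspg5, a neuroglycan, was higher by 0.48 ± 0.09. Olig1, a lineage factor, had a log2 change of -0.53 ± 0.22 (adjusted p = 0.141), and its 24 h libraries spanned 202 to 582 FPKM. The 3 highest of these were 0.2 µM replicate 1 at 582 FPKM, 0.2 µM replicate 3 at 448 FPKM and 0.5 µM replicate 3 at 372 FPKM, the same 3 that lay lowest on the first component. Without the 2 libraries that stood apart, Olig1 changed by -0.89 (adjusted p = 0.00272) and Olig2 by -0.24 (adjusted p = 0.038).

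**Figure D3:**
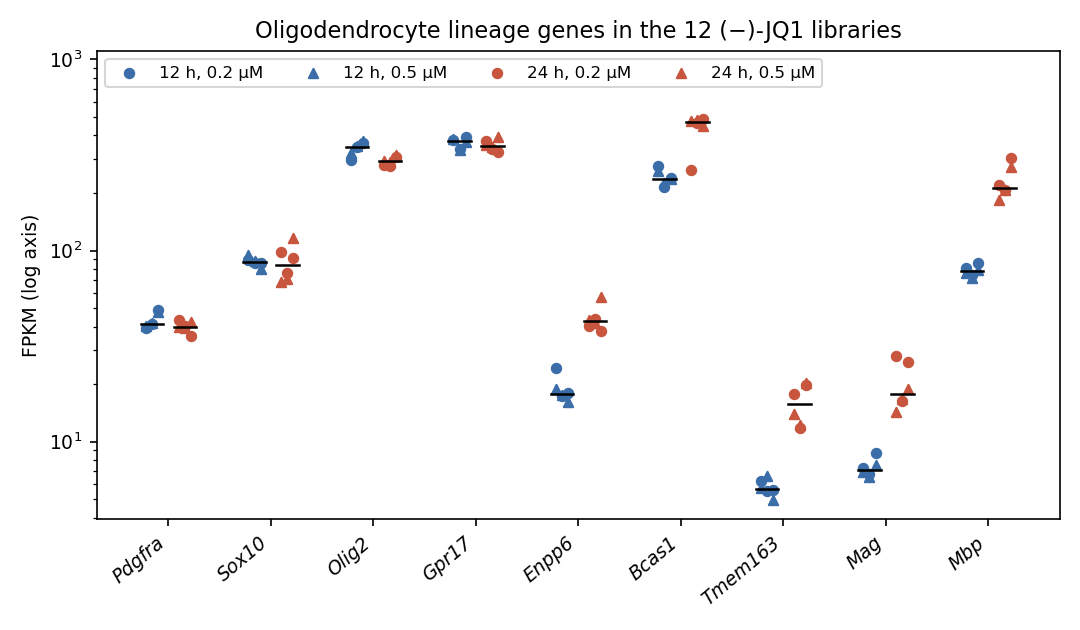
FPKM on a log axis of oligodendrocyte lineage genes in each of the 12 (−)-JQ1 libraries, with bars at the median of each time. Enpp6, Tmem163, Mag and Mbp show no overlap between 12 and 24 h, while Pdgfra, Sox10, Olig2 and Gpr17 do overlap.

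Astrocyte genes rose in part. Of 29 tested, 10 were higher and 2 lower, with a median log2 change of 0.32. Clu, a secreted chaperone of astrocytes, was at 27.7 to 60.3 FPKM at 12 h (median 45.4) and 106 to 155 FPKM at 24 h (median 115). Clu changed by 1.48 ± 0.19 (adjusted p = 0.000306). Aqp4, their water channel, was at 98.8 to 141 FPKM at 12 h (median 113) and 168 to 255 FPKM at 24 h (median 241). Aqp4 changed by 0.94 ± 0.12 (adjusted p = 0.000306). Gfap, their intermediate filament, was at 259 to 306 FPKM at 12 h (median 291) and 410.1 to 583 FPKM at 24 h (median 485). Gfap changed by 0.74 ± 0.10 (adjusted p = 0.000306). S100b, a calcium-binding protein that oligodendrocytes also make, changed by 0.96 ± 0.15. These 4 showed no overlap between the times. Ntsr2, the neurotensin receptor of astrocytes, changed by -0.74 ± 0.10 (adjusted p = 0.000495), and Atp1b2, a sodium pump subunit, fell by 0.36 on the log2 scale (adjusted p = 0.0289). The glutamate transporter Slc1a3 changed by 0.34 ± 0.13 (adjusted p = 0.102), and by 0.47 (adjusted p = 0.0133) without the 2 libraries that stood apart. Of 25 genes of neural stem cells and radial glia, 4 were higher and 3 lower. The higher count was 2 without 12 h 0.2 µM replicate 2 or 3, 12 h 0.5 µM replicate 2, or 24 h 0.5 µM replicate 1 or 2, and the lower count was 6 without 24 h 0.2 µM replicate 1. Without both libraries that stood apart, 8 were higher and 6 lower. Sox2, a factor that maintains progenitors, was at 192 to 209 FPKM at 12 h (median 204) and 223 to 326 FPKM at 24 h (median 283). Sox2 changed by 0.43 ± 0.10 (adjusted p = 0.015), while Nes changed by 0.08 ± 0.11 (adjusted p = 0.688) and Pax6 by 0.25 ± 0.09 (adjusted p = 0.107), which reached 0.36 (adjusted p = 0.0112) without both libraries that stood apart.

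Genes of young neurons and of inhibitory neurons rose in part, while proneural factors showed changes in both directions. Of 23 genes of the young neuron cytoskeleton and growth cone, 9 were higher and 0 lower, with a median log2 change of 0.31. Dcx, the microtubule protein of migrating neurons, was at 26.2 to 32.2 FPKM at 12 h (median 28.4) and 38.2 to 59.5 FPKM at 24 h (median 41.5). Dcx changed by 0.59 ± 0.10 (adjusted p = 0.00195). Stmn1, which destabilises microtubules, changed by 0.74 ± 0.16, Rtn1, a reticulon of neurons, by 0.65 ± 0.12 and Gap43, a growth cone protein, by 0.68 ± 0.15, while the neuronal tubulin Tubb3 at 0.36 ± 0.13 did not pass (adjusted p = 0.097). Of 23 synapse genes, 7 were higher and 0 lower. Gad2, an enzyme that makes GABA, was at 0.675 to 2.74 FPKM at 12 h (median 1.3) and 3.38 to 5.09 FPKM at 24 h (median 4.37). Gad2 changed by 1.10 ± 0.19 (adjusted p = 0.002), and its companion Gad1 changed by 0.81 ± 0.16. Of 15 genes of the ganglionic eminence and interneurons, 5 were higher and 1 lower, with 4 to 9 higher when single libraries were left out, the 9 without 24 h 0.2 µM replicate 1. Dlx5, a homeobox factor of inhibitory neurons, was at 2.02 to 5.73 FPKM at 12 h (median 3.02) and 6.18 to 11.4 FPKM at 24 h (median 10.2), with no overlap. Dlx5 changed by 1.28 ± 0.20 (adjusted p = 0.00136). The antisense RNA Dlx6as1 of the same locus changed by 1.53 ± 0.13, and reads of Dlx6 on the other strand cannot be told apart where counting did not use strand, which is not given in the sources used here. Calb2, the calcium buffer calretinin, was at 0.554 to 1.25 FPKM at 12 h (median 0.979) and 2.04 to 7.48 FPKM at 24 h (median 3.84). Calb2 changed by 1.34 ± 0.19 (adjusted p = 0.000588), and Gsx1, an early factor of the ganglionic eminence, fell by 0.73 on the log2 scale (adjusted p = 0.00183). Npy, a neuropeptide, was at 1.77 to 12.6 FPKM at 12 h (median 5.04) and 11.9 to 25.4 FPKM at 24 h (median 17). Its log2 change of 1.45 ± 0.38 (adjusted p = 0.0331) was lost, at adjusted p of up to 0.0763, when any of 7 of the 12 libraries was left out. Of 18 proneural and neurogenic factors tested, 4 were higher and 2 lower, with 2 higher and 3 lower when 12 h 0.5 µM replicate 3 was left out. Neurog2 changed by -0.33 ± 0.11 (adjusted p = 0.0596) and Insm1 by -0.11 ± 0.16 (adjusted p = 0.695). Of 32 axon guidance genes, 12 were higher and 1 lower, with 6 higher when 12 h 0.5 µM replicate 1 was left out. Sema4d, a semaphorin, changed by 0.89 ± 0.09 and the ephrin receptor Ephb1 by 0.71 ± 0.07.

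Genes that respond to FGF and ERK signalling fell in part. Of 28 tested, 10 were lower and 2 higher, with a median log2 change of -0.34, and 9 to 14 were lower when single libraries were left out. Etv5, a transcription factor induced by FGF, was at 13.8 to 32.3 FPKM at 12 h (median 22.6) and 6.25 to 9.68 FPKM at 24 h (median 7.18). Etv5 changed by -1.44 ± 0.21 (adjusted p = 0.000702). Il17rd, an inhibitor of FGF receptors, was at 10.1 to 13.6 FPKM at 12 h (median 12) and 4.14 to 5.48 FPKM at 24 h (median 4.96). Il17rd changed by -1.12 ± 0.09 (adjusted p = 7.92e-06). Egfr, the receptor of epidermal growth factor, was at 43.3 to 59.8 FPKM at 12 h (median 56.7) and 12.8 to 22 FPKM at 24 h (median 20.1). Egfr changed by -1.43 ± 0.12 (adjusted p = 1.63e-05). All 3 genes showed no overlap between the times. The feedback inhibitors Spry2 and Spry4 changed by -0.58 ± 0.12 and -0.58 ± 0.13, the Etv5 relative Etv4 was at 3.46 to 7.19 FPKM at 12 h (median 6.39) and 1.58 to 3.18 FPKM at 24 h (median 2.3) (adjusted p = 0.00223), and Spred2 and Spred3, which restrain Ras, changed by -0.66 ± 0.14 and -0.60 ± 0.11. Dusp6, an ERK phosphatase, was at 3.38 to 8.99 FPKM at 12 h (median 4.67) and 1.82 to 4.48 FPKM at 24 h (median 2.54). Its log2 change of -0.76 ± 0.20 (adjusted p = 0.0254) was lost, at adjusted p of up to 0.0625, when any of 5 libraries was left out. The receptor Fgfr2 rose by 0.48 ± 0.09 and Fgf13 by 0.72 ± 0.12, while Fgfr1 changed by -0.22 ± 0.13 (adjusted p = 0.271) and Myc by 0.17 ± 0.09 (adjusted p = 0.234). Of 20 immediate early genes tested, 3 were lower and 2 higher, and 6 were lower without both libraries that stood apart. Egr1, an early response factor, was at 11.8 to 21 FPKM at 12 h (median 17.4) and 7 to 9.64 FPKM at 24 h (median 7.91). Egr1 changed by -0.98 ± 0.13 (adjusted p = 0.000424), Fos, a subunit of AP-1, changed by -0.70 ± 0.14, and the 2 that rose, Ctgf and Cyr61, are matricellular proteins.

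Notch pathway genes also fell in part, and genes of BMP signalling rose in part. Of 21 Notch genes tested, 7 were lower and 0 higher, with a median log2 change of -0.16. Dll1, a ligand, was at 42.8 to 57.8 FPKM at 12 h (median 54.6) and 24.1 to 39.8 FPKM at 24 h (median 29.3). Dll1 changed by -0.77 ± 0.11 (adjusted p = 0.000734). Notch1, the receptor, was at 30.4 to 41.8 FPKM at 12 h (median 35) and 16.4 to 29.3 FPKM at 24 h (median 21). Notch1 changed by -0.69 ± 0.13 (adjusted p = 0.003). Nrarp, a target that feeds back on the pathway, changed by -0.67 ± 0.10 (adjusted p = 0.000568). The targets Hes1 at 0.21 ± 0.12 and Hes5 at -0.34 ± 0.18 did not pass (adjusted p = 0.273 and 0.248), and Hes5 reached -0.62 (adjusted p = 0.00805) without the 2 libraries that stood apart. The count of lower Notch genes was 3 without 12 h 0.5 µM replicate 1 or 2 or without 24 h 0.5 µM replicate 1 or 2, and 4 without 12 h 0.2 µM replicate 2. Of 21 BMP and TGF-beta genes, 8 were higher and 1 lower, with 5 higher when 24 h 0.5 µM replicate 1 was left out. Nog, a secreted inhibitor of BMPs, was at 3.19 to 6.61 FPKM at 12 h (median 4.14) and 10.7 to 24.1 FPKM at 24 h (median 15.9). Nog changed by 1.61 ± 0.20 (adjusted p = 0.000311). The ligand Bmp6 was at 0.473 to 1.19 FPKM at 12 h (median 0.742) and 2.73 to 7.78 FPKM at 24 h (median 4.08). Bmp6 changed by 1.58 ± 0.19 (adjusted p = 0.000159). Id4, a target that holds back bHLH factors, changed by 0.65 ± 0.10, while Id1 and Id3 changed by 0.32 ± 0.17 and 0.36 ± 0.22 (adjusted p = 0.23 and 0.307). Of 23 Wnt genes, 5 were lower and 2 higher (1 higher without 12 h 0.2 µM replicate 2 or 3, 12 h 0.5 µM replicate 2, 24 h 0.2 µM replicate 3 or 24 h 0.5 µM replicate 2), among them the ligand Wnt7b at -0.87 ± 0.14 and the inhibitor Sfrp1 at 0.72 ± 0.14. Of 10 hedgehog genes, 3 were lower and 0 higher, with 1 lower when 12 h 0.2 µM replicate 3 or 12 h 0.5 µM replicate 1 was left out.

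**Figure D4:**
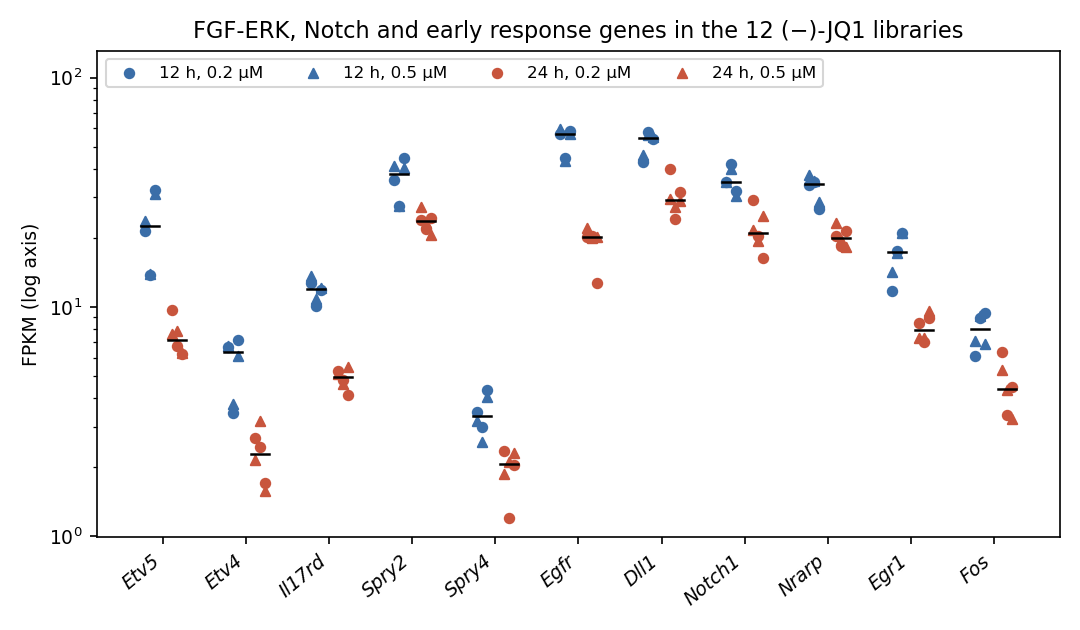
FPKM on a log axis of FGF-ERK, Notch and early response genes in each of the 12 (−)-JQ1 libraries, with bars at the median of each time. The 24 h libraries lie below all 12 h libraries in Etv5, Etv4, Il17rd, Spry2, Spry4, Egfr, Dll1, Notch1, Nrarp and Egr1, and Fos overlaps.

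DNA replication genes rose in (−)-JQ1, and genes of mitosis for the most part did not pass the test. Of 44 replication and S phase genes tested, 26 were higher and 0 lower, all 44 had a change above 0, and the median log2 change was 0.46. The count was 23 to 28 when single libraries were left out, 27 without both libraries that stood apart, and 10 where genes needed 5 FPKM in 3 libraries to be tested. That stricter filter takes low genes such as Uhrf1 out of the test, so the 10 is not out of 44. Rrm2, the ribonucleotide reductase subunit that limits the supply of DNA building blocks, was at 2.51 to 3.82 FPKM at 12 h (median 2.75) and 5.47 to 9.91 FPKM at 24 h (median 8.23). Rrm2 changed by 1.17 ± 0.14 (adjusted p = 0.00014). Uhrf1, which maintains DNA methylation behind the fork, was at 1.4 to 2.08 FPKM at 12 h (median 1.97) and 3.48 to 6.16 FPKM at 24 h (median 4.05). Uhrf1 changed by 0.92 ± 0.12 (adjusted p = 0.000311). Mcm6, whose window is printed above, was at 5.45 to 6.55 FPKM at 12 h (median 6.26) and 9.1 to 14.4 FPKM at 24 h (median 13). Mcm6 changed by 0.88 ± 0.11 (adjusted p = 0.000211). Lig1, which joins the fragments of the lagging strand, changed by 0.93 ± 0.14, the clamp protein Pcna by 0.45 ± 0.09 and Mcm5 by 0.76 ± 0.12, while Mcm2 at 0.05 ± 0.10 did not pass (adjusted p = 0.784). Of 61 G2 and mitosis genes tested, 7 were higher and 1 lower, with a median of 0.20, where 8.61% of all genes were higher and 3.13% lower. Spc25, a kinetochore protein, was at 1.19 to 2.9 FPKM at 12 h (median 1.36) and 2.52 to 6.14 FPKM at 24 h (median 3.6). Spc25 changed by 0.82 ± 0.20 (adjusted p = 0.0183), and Cdc25b, a phosphatase that starts mitosis, was at 6.05 to 8.2 FPKM at 12 h (median 6.29) and 2.9 to 5.89 FPKM at 24 h (median 3.37). Cdc25b changed by -0.72 ± 0.12 (adjusted p = 0.00181). Top2a changed by 0.71 ± 0.19 (adjusted p = 0.0291), a call lost at adjusted p of up to 0.0717 when any of 7 libraries was left out. The count of higher G2 and mitosis genes was 2 without 12 h 0.2 µM replicate 1 or 2, 3 without 12 h 0.5 µM replicate 1 or 24 h 0.5 µM replicate 1 or 2, and 11 without 24 h 0.5 µM replicate 3. It was 10 without both libraries that stood apart, 24 with library weights (2 lower), and 1 with same-numbered libraries averaged. With library weights 2839 of all genes tested were higher and 2042 lower. Mki67, present in cycling cells, was at 1.28 to 2.65 FPKM at 12 h (median 1.7) and 1.64 to 3.97 FPKM at 24 h (median 2.52), and its log2 change of 0.32 ± 0.16 did not pass (adjusted p = 0.219), while it reached 0.49 (adjusted p = 0.0452) without both libraries that stood apart.

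Some cell cycle inhibitors and p53 targets fell, while the inhibitor Cdkn2b rose. Of 23 cyclins and inhibitors tested, 4 were higher and 3 lower, where 8.61% of all genes were higher and 3.13% lower. The lower count was 2 to 6 when single libraries were left out. Cdkn1a, the p21 inhibitor and a p53 target, was at 23.1 to 49.6 FPKM at 12 h (median 26.5) and 14.8 to 17.4 FPKM at 24 h (median 15.6), with no overlap. Cdkn1a changed by -0.96 ± 0.19 (adjusted p = 0.00456). Cdkn1c, the p57 inhibitor, was at 59.2 to 79 FPKM at 12 h (median 63.9) and 26 to 49.3 FPKM at 24 h (median 38.3). Cdkn1c changed by -0.83 ± 0.14 (adjusted p = 0.00163). Cdkn1b, the p27 inhibitor, changed by 0.04 ± 0.07 (adjusted p = 0.729). Cdkn2b changed by 0.67 (adjusted p = 0.00812), a call kept with each library left out in turn. Cyclin D2, encoded by Ccnd2, was at 28.2 to 38.1 FPKM at 12 h (median 37.2) and 52.4 to 72 FPKM at 24 h (median 59.9). Ccnd2 changed by 0.80 ± 0.10 (adjusted p = 0.000229), whereas Ccnd1 changed by 0.22 ± 0.15 (adjusted p = 0.369). Of 28 p53 targets and cell death genes tested, 5 were lower and 0 higher, with a median of -0.23, and 12 were lower without both libraries that stood apart. Eda2r, an ectodysplasin receptor, changed by -1.05 ± 0.23, Btg2, which slows division, by -0.57 ± 0.08 and Trp53 itself by -0.51 ± 0.12. With same-numbered libraries averaged, the limma calls of Cdkn1a (adjusted p = 0.0941), Eda2r (0.142) and Trp53 (0.073) were lost, and that of Btg2 was kept. At 12 h, Eda2r was at 16.9 and 17.1 FPKM in replicate 3 of the doses and at 6.83 to 8.74 FPKM in the others.

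The time courses of the enantiomers, which share no library, were compared by the difference of the time effects over all 24 libraries. Of 13801 genes tested, 169 (1.22%) differed, with the change between 12 and 24 h higher in (−)-JQ1 for 131 (0.949%) and lower for 38 (0.275%). Of 66 G2 and mitosis genes, 16 differed, all higher in (−)-JQ1, and of 44 replication genes 12 differed, all higher in (−)-JQ1. The mitosis genes number 66 here and 61 above because the filter counted all 24 libraries. Cdc25c, Bub1, Nek2, Kif18a and Troap did not pass it in the 12 (−)-JQ1 libraries and entered only with the (+)-JQ1 libraries. Bub1 is among the 16 that differed, and all of these genes are in the counts over the 66. The difference was above 0 in 65 of the 66 and in 44 of the 44, against 6194 of all 13801 genes. Over all 66 mitosis genes the change was between -0.72 and 0.82 in (−)-JQ1, above 0 in 48, and between -1.67 and 0.01 in (+)-JQ1, below 0 in 65. Over all 44 replication genes it was between 0.04 and 1.17 in (−)-JQ1, above 0 in 44, and between -0.41 and 0.49 in (+)-JQ1, below 0 in 26. In (+)-JQ1 itself, 51 of the 66 mitosis genes fell with time, where 3.69% of all genes did. Of the 44 replication genes, 0 fell and 4 rose, where 8.81% of all genes rose. Mki67 changed by 0.32 ± 0.16 in (−)-JQ1 and by -1.44 ± 0.21 in (+)-JQ1, a difference of 1.75 ± 0.30 (adjusted p = 0.00376). Rrm2 changed by -0.39 ± 0.18 in (+)-JQ1, a difference of 1.56 ± 0.25 (adjusted p = 0.00206). Uhrf1 changed by -0.08 ± 0.13 in (+)-JQ1, a difference of 1.00 ± 0.18 (adjusted p = 0.00602).

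**Figure D5:**
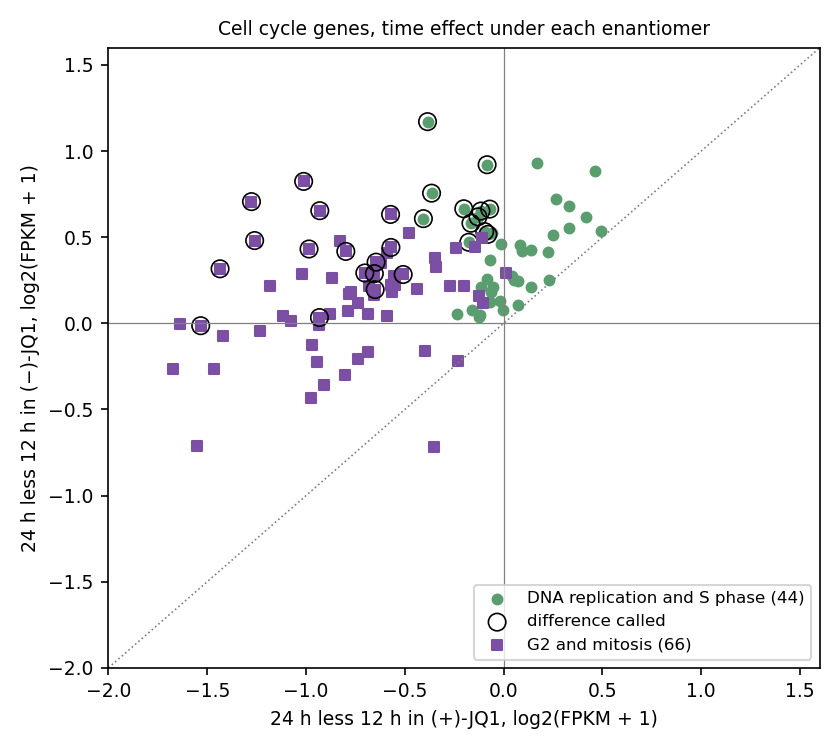
Change between 12 and 24 h on the log2(FPKM + 1) scale under (+)-JQ1 (horizontal axis) and (−)-JQ1 (vertical axis) for 44 replication and S phase genes and 66 G2 and mitosis genes; circles mark genes whose difference was called, and the dotted line marks equal change. Of the 66 mitosis genes, 65 lie above the dotted line and 65 lie left of 0.

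Outside the cell cycle, Enpp6 was one of the oligodendrocyte genes whose time course differed. It changed by 0.10 ± 0.10 in (+)-JQ1 against 1.19 ± 0.11 in (−)-JQ1, a difference of 1.09 ± 0.13 (adjusted p = 0.000121), while the difference for Mbp was 0.63 ± 0.30 (adjusted p = 0.524). In (+)-JQ1, Enpp6 was at 0.196 to 2.44 FPKM at 12 h and 0.12 to 3.13 FPKM at 24 h. The log2(FPKM + 1) scale understates changes at such levels, so its difference in course cannot be told apart from a difference in level. Of 26 oligodendrocyte genes, 2 differed, Enpp6 and the transcript 9630013A20Rik, both higher in (−)-JQ1. Scrg1, a secreted protein of glia, was at 50.3 to 80.1 FPKM at 12 h (median 62.7) and 103 to 127 FPKM at 24 h (median 108) in (−)-JQ1, a log2 change of 0.81 ± 0.11, and differed by 1.34 ± 0.19 (adjusted p = 0.000636). Acta2, the smooth muscle actin, was at 56.9 to 69.6 FPKM at 12 h (median 62.2) and 95.2 to 145 FPKM at 24 h (median 122) in (−)-JQ1, a log2 change of 0.94 ± 0.10, and differed by 1.19 ± 0.15 (adjusted p = 0.000134). Igfbp3, which binds insulin-like growth factors, differed by 1.15 ± 0.25 (adjusted p = 0.0214), a call lost with library weights (adjusted p = 0.0687) and without both libraries that stood apart (adjusted p = 0.0559). In the other direction, Pcp4, a calmodulin-binding peptide of neurons, changed by 0.60 ± 0.14 in (−)-JQ1 and by 2.76 ± 0.16 in (+)-JQ1, a difference of -2.16 ± 0.22 (adjusted p = 2.83e-05). Bmper, a secreted BMP modulator, changed by -0.64 ± 0.09 in (−)-JQ1 and by 0.50 ± 0.10 in (+)-JQ1, a difference of -1.14 ± 0.14 (adjusted p = 0.000129). The Notch ligand Jag1 changed by -0.19 ± 0.10 in (−)-JQ1 and by 0.78 ± 0.09 in (+)-JQ1, a difference of -0.96 ± 0.13 (adjusted p = 0.000345). Of the FGF-ERK list, Egfr differed, with a larger fall in (−)-JQ1, by -0.71 ± 0.17 (adjusted p = 0.038).

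Cholesterol synthesis genes and chaperones of the endoplasmic reticulum rose in part. Of 34 genes of cholesterol synthesis and uptake, 8 were higher and 0 lower, with a median log2 change of 0.20. Insig1, which holds the sterol sensor in the endoplasmic reticulum, was at 26.1 to 36.2 FPKM at 12 h (median 33.7) and 44.4 to 61.6 FPKM at 24 h (median 52.4). Insig1 changed by 0.70 ± 0.10 (adjusted p = 0.000695), and differed between the enantiomers by 0.77 ± 0.15 (adjusted p = 0.0101). Hmgcs1, an early enzyme of the pathway, changed by 0.07 ± 0.17 (adjusted p = 0.831) and Sqle, the squalene epoxidase, by 0.31 ± 0.11 (adjusted p = 0.0684). The count was 4 without 12 h replicate 2 of either dose and 5 without 24 h 0.5 µM replicate 2. Of 29 genes of the integrated stress and unfolded protein response, 7 were higher and 1 lower. Calr, a calcium-binding chaperone, was at 322 to 381 FPKM at 12 h (median 338) and 398 to 559.7 FPKM at 24 h (median 509). Calr changed by 0.51 ± 0.10 (adjusted p = 0.00524), and Hspa5, the main chaperone of the endoplasmic reticulum, changed by 0.46 ± 0.10, while the stress factor Atf4 changed by 0.01 ± 0.11 (adjusted p = 0.956).

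Some markers of mural cells rose, and the list of matrix genes changed in both directions. Of 28 genes of extracellular matrix and adhesion, 4 were higher (Thbs1, Nid1, Itga1 and Col11a1) and 3 lower (Itgb8, Lama5 and Mmp2), with a median log2 change of 0.12. Over all genes tested, 8.61% were higher and 3.13% lower. The higher count was 2 without 12 h 0.5 µM replicate 3 or 24 h 0.5 µM replicate 1 or 2, 7 without 24 h 0.2 µM replicate 3, and 8 without both libraries that stood apart. Of 18 markers of pericytes, smooth muscle and fibroblasts, 10 were tested and 5 were higher (Tagln, Vtn, Pdgfrb, Acta2 and Pdgfrl) and 1 lower (Cspg4). Their summed level over all 18 was 87.7 to 110.8 FPKM at 12 h and 173 to 303 FPKM at 24 h, most of it Acta2 and Tagln. Pdgfrb, the receptor of pericytes, was at 0.534 to 1.83 FPKM at 12 h (median 1.58) and 3.19 to 4.65 FPKM at 24 h (median 4.21). Pdgfrb changed by 1.08 ± 0.15 (adjusted p = 0.000423). Of their defining markers, Kcnj8 was at 0 in all 12 libraries, and Rgs5, Des and Myh11 reached at most 0.106, 0.116 and 0.167 FPKM. The fibroblast collagen Col1a1 changed by 0.21 ± 0.13 (adjusted p = 0.339) and the proteoglycan Dcn by 0.06 ± 0.16 (adjusted p = 0.857). The endothelial receptor Kdr was at 0.644 to 2.46 FPKM at 12 h (median 0.94) and 3.48 to 6.58 FPKM at 24 h (median 4.49). Kdr changed by 1.35 ± 0.21 (adjusted p = 0.00104), while Cdh5 and Cldn5, which define endothelium, were at 0 in all 12 libraries. Of 8 genes of motile cilia and ependyma tested, 4 were higher, led by Foxj1, the factor that drives ciliogenesis, which was at 8.92 to 15.5 FPKM at 12 h (median 10.5) and 17.7 to 29.8 FPKM at 24 h (median 21). Foxj1 changed by 0.85 ± 0.14 (adjusted p = 0.00171). The part of these cell types in the other changes was not tested.

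No gene passed the test of dose, and 2 short RNAs passed the test of whether the time effect differed between doses. Between 0.5 and 0.2 µM over both times, 0 of 13525 genes (0%) passed with limma (adjusted p under 0.05), 294 had an unadjusted p under 0.05, and the smallest adjusted p was 0.987. The time effect passed for 442 genes (3.27%) at 0.2 µM, 346 higher (2.56%) and 96 lower (0.71%). At that dose the split was 255 higher and 147 lower with rescaled libraries, and 124 higher and 136 lower without both libraries that stood apart. The time effect passed for 386 genes (2.85%) at 0.5 µM, 293 higher (2.17%) and 93 lower (0.688%). With single libraries left out, the count at 0.2 µM ranged from 109, without 12 h 0.2 µM replicate 3, to 1517, without 24 h 0.2 µM replicate 2, and the count at 0.5 µM from 107, without 24 h 0.5 µM replicate 1, to 674, without 24 h 0.5 µM replicate 3. The time effect differed between doses for 2 genes (0.0148%), 1 in each direction (0.00739%), the short RNAs Snord69 and Snora65, and for 294 genes without 24 h 0.2 µM replicate 2, 18 above 0 and 276 below 0. Snord69 was listed at 1944, 1025 and 976 FPKM in the 12 h 0.2 µM libraries and at 0 in the other 9. Snora65 was at 67.2 to 149 FPKM in the 6 libraries at 12 h, at 65.6 to 158 FPKM in the 24 h 0.2 µM libraries and at 21.9 to 23.8 FPKM in the 24 h 0.5 µM libraries.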

How the data were processed

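Poly(A) RNA was sequenced as single 50-base reads, per the labels' protocols. The tools named per the submitters' processing notes are FastQC and TopHat2, with mouse build mm9. Their versions, and the program and annotation behind the FPKM values, are not stated in the labels or files. The authors deposited FPKM per gene symbol for each library, and these were used without rescaling. A total of 26636 genes was kept from 26694 rows by dropping 58 rows of 29 symbols listed more than once. FPKM keep no read numbers, so steps of values under 1 FPKM gave relative depth alone.

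Genes with at least 1 FPKM in 3 of the 12 libraries were tested on log2(FPKM + 1) with limma 3.58.1 in R 4.3.3 (empirical Bayes with trend and robust variance, 9 residual degrees of freedom), with time and dose as terms and Benjamini-Hochberg adjustment over all genes, and called at an adjusted p under 0.05. This scale understates changes of low genes. Single doses and their difference used 4 group means, and the difference between enantiomers used 8 group means over all 24 libraries (16 residual degrees of freedom). For that difference, genes needed at least 1 FPKM in 3 of the 24 libraries. The fit was tested on simulated data with known changes. In all, 6 comparisons were made, with no adjustment between them.

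The genes named are the 12 largest rises and 12 largest falls with a mean of at least 5 FPKM and one direction in all 6 same-numbered pairs (short RNAs left out), up to 4 called members of each of 38 lists at 2 FPKM or more, the 6 largest differences between enantiomers on each side, called dose genes and a set of marker genes, from which the text takes a part. Rrm2, Acta2 and list members beyond the first 4 were chosen after their values were seen. The comparison, the members and the lists were chosen with earlier results of these data known. Alternatives were another pseudocount (0.1), filter, scaling, library weights, the block, 24-library fits, no dose term, each library left out and an exact permutation within dose. Leaving out both libraries that stood apart, and averaging same-numbered libraries of a time over both doses, were chosen after seeing the data. Promoters came from RefSeq's GRCm38.p6 table; no coordinates were converted from mm9. Some genes of the lists are not reported here by name.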

Additional observations from a re-analysis of the deposited data

Results flagged for a closer look

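At 24 h, 0.2 µM replicate 1 lay far from the other 5 libraries in its summed FPKM, 869594, with a gap of 0.724 of the group's range, and in Mir5105, 371271 FPKM, with a gap of 0.986. Chance puts about 1 in 20 groups past this limit.

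The change between 12 and 24 h differed between (−)-JQ1 and (+)-JQ1 in 29 of the genes named, by limma's test of the difference with adjusted p under 0.05. Values are log2 differences, (−)-JQ1 less (+)-JQ1. Among cell cycle genes they were 1.75 for Mki67, 1.98 for Top2a, 1.84 for Spc25, 1.58 for the mitotic kinase Pbk, 1.52 for Ube2c, which marks cyclins for destruction, 1.22 for the mitotic kinase Cdk1, 1.56 for Rrm2 and 1.00 for Uhrf1. Among the other genes they were 1.09 for Enpp6, 1.34 for Scrg1, 1.09 for Calb2, 1.19 for Acta2, 1.15 for Igfbp3, 1.12 for Cox6b2, 0.77 for Insig1, 0.71 for Tspan18, 0.56 for Sema4d and 0.54 for Ephb1. In (+)-JQ1, Calb2 was at 0 to 0.0702 FPKM at 12 h and 0.07 to 0.409 FPKM at 24 h, and Enpp6 at 0.12 to 3.13 FPKM over both times. The scale understates changes at such levels, so for Calb2 and Enpp6 a difference in course cannot be told apart from a difference in level. The difference was below 0 in Pcp4 (-2.16), Snora65 (-1.32), Gse1 (-1.19), Bmper (-1.14), Jag1 (-0.96), Lingo1 (-0.93), Mfge8 (-0.87), Kcnj10 (-0.76), Egfr (-0.71), Gas7 (-0.63) and Kcnd3 (-0.60). Single libraries were left out for 12 of these differences, 6 on each side. The call was lost for Mfge8 in 13 of 24 such fits (adjusted p up to 0.0718), for Ube2c in 4 (up to 0.0543) and for Cox6b2 in 2 (up to 0.0539). Without both libraries that stood apart, Ube2c (adjusted p = 0.0882) and Igfbp3 (adjusted p = 0.0559) did not pass.

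Between doses of (−)-JQ1 the time effect differed in Snord69 by 10.29 and in Snora65 by -2.79 on the log2 scale, 0.5 µM less 0.2 µM.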

How the results depend on the processing

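The 1588 genes called between 12 and 24 h numbered 1123 to 2170 under another pseudocount, filter, scaling, 24-library fit or no dose term, 4881 with library weights (2839 higher, 2042 lower), 3705 without both libraries that stood apart and 763 with same-numbered libraries of a time averaged; rescaling gave 973 higher and 704 lower. Leaving out each replicate gave 1104 to 2703, the highest without 24 h 0.2 µM replicate 1. At 0.2 µM the 442 became 171 with library weights, 853 in the 24-library fit and 260 without both libraries, and 109 to 1517 with single replicates left out. At 0.5 µM the 386 became 255 at 5 FPKM or more, 3087 with library weights, 726 in the 24-library fit and 1080 without both libraries, and 107 to 674 with single replicates left out. The 2 genes that differed between doses became 1 with no filter and 1 in the 24-library fit, and 0 to 294 with single replicates left out, the 294 without 24 h 0.2 µM replicate 2. The 169 that differed between enantiomers became 71 at 5 FPKM or more and 116 to 218 with single replicates left out. The dose contrast gave 0 in all settings run. With the replicate number as a block, the counts were 1516, 428, 401, 2, 0 and 210, in the order time, 0.2 µM, 0.5 µM, difference between doses, dose and difference between enantiomers. Same-numbered libraries correlated between doses at 0.105, 0.125 and 0.168 at 12 h, at -0.117, 0.12 and 0.093 at 24 h, and from -0.117 to 0.168 over all 18 pairs, 5 of them over 0.1. In replicates 1 to 3 at 12 h, Cdkn1a was at 25.2, 23.1 and 49.6 FPKM at 0.2 µM and at 27.8, 24.3 and 48.8 FPKM at 0.5 µM. Etv5 was at 21.5, 13.8 and 32.3 FPKM at 0.2 µM and at 23.7, 13.9 and 31.2 FPKM at 0.5 µM. Both genes were picked after their values were seen. The numbers may thus pair the doses at 12 h, so p-values that treat the libraries of a time as 6 may be too small. The numbers were not taken to pair the libraries of different times. Of 173 named genes, 137 were called for time, of which 115 were called with each library left out in turn. Under the exact permutation within dose, whose p-values are not adjusted and whose smallest is 0.005, 165 of 173 kept their side of 0.05 and 8 more passed. Many of these genes were named for their calls in these same libraries, and the main calls use adjusted p. This agreement was thus largely fixed in advance and is no independent check. Averaging same-numbered libraries ended 39 of the 137 calls, among them Ogn, Ctgf, Thbs1, Cdkn1a, Trp53, Spc25 and Top2a. No named gene that was called changed sign in any setting, while the balance of calls at 0.2 µM turned from 346 higher and 96 lower to 124 and 136 without both libraries, and the 294 genes that differed between doses were 18 above and 276 below 0. The causes of these changes were not tested. The depth is unknown, so no counting error can be given for low genes.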

Other observations

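Housekeeping programmes stayed mostly below the threshold. Of 40 ribosome biogenesis genes and of 11 genes of BET proteins, Hexim1 and P-TEFb, 0 passed with limma for time, 5 and 2 had an unadjusted p under 0.05, and their median log2 changes were 0.05 and 0.01. Without 24 h 0.2 µM replicate 1, 4 and 2 were higher, where 1639 of all genes tested were higher. With library weights 7 and 2 were higher and 2 and 1 lower, where 2839 of all genes tested were higher and 2042 lower. Of 30 genes of the respiratory chain and mitochondria, 1 was higher (0 to 2 with single libraries left out), and of 24 histone genes 2 were lower, among them the linker histone H1f0 at -0.39 ± 0.08 (adjusted p = 0.00828). Of 28 genes of hypoxia and glycolysis, 6 were higher and 1 lower, led by Pdk1, which slows entry of pyruvate into mitochondria, at 0.53 ± 0.09 (adjusted p = 0.00139). The higher count was 2 without 12 h 0.2 µM replicate 3 and 3 without 12 h 0.2 µM replicate 2, 12 h 0.5 µM replicate 3 or 24 h 0.5 µM replicate 1.

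Genes of a list of ion channels and their subunits changed in both directions, 3 higher and 4 lower of 24. Without both libraries that stood apart, 6 were higher and 4 lower. The list was named for voltage-gated channels, but its called members Kcnk2, Kcnk1, Kcnj10 and Cacng5 are not such channels. Its other called members were Cacnb4, which was higher, and Kcnd3 and Kcnc1, which were lower. Over all genes tested in the main fit, 8.61% were higher and 3.13% lower, shares to set beside the counts of this paragraph. Kcnk2, a leak potassium channel, rose by 1.03 ± 0.18 (adjusted p = 0.00201), and Kcnk1, of the same family, by 0.61 ± 0.13. Cacng5, which attends AMPA receptors, changed by -1.52 ± 0.13 (adjusted p = 1.53e-05), and Kcnj10, the potassium channel of glia, by -0.46 ± 0.10. Of 17 genes of gliogenic cytokines and JAK-STAT signalling, 2 were higher, the cytokine Cntf at 1.28 ± 0.15 and the receptor Osmr at 0.47 ± 0.10, and Stat3 was lower at -0.41 ± 0.07.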
